A study of Drosophila melanogaster with 399 samples.

Results

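The pair-rule genes of Drosophila were followed through whole-embryo RNA-seq libraries in which single transcription factors (TFs) had been knocked down by RNA interference. The members are the 9 genes eve, ftz, h, run, odd, prd, slp1, slp2 and opa, taken by gene symbol from count tables that list 17612 symbols, and all 9 were found. No member was itself a target of the RNAi. The series holds 271 RNAi libraries for 45 TFs and 128 control libraries. RNAi embryos came from da-Gal4 mothers, which drive expression in all cells, crossed to males that carried 1 short hairpin against 1 TF, and control embryos carried a hairpin against mCherry, a gene that flies do not have. The control set of twi is labelled MTD-Gal4 and that of E5 da-Gal4. Each TF was tested with 1 hairpin, so a response to the TF and a response to that hairpin cannot be told apart. Embryos were collected at 0–1.5 hours after egg laying, at 1 or more 2-hour windows of peak expression of the TF between 2 and 16 hours, and at 16–18 hours, with 2 replicate libraries per group, apart from 3 RNAi groups with 1.

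Pair-rule genes are the layer of the segmentation cascade that first turns the broad domains of maternal and gap factors into periodic stripes along the embryo. All 9 encode TFs. Hairy (h), Even-skipped (eve) and Runt (run) are counted among the early regulators of the group, Fushi tarazu (ftz), Odd-skipped (odd), Paired (prd) and the Sloppy-paired proteins act with and after them, and Odd-paired (opa) is known for setting the time at which the stripes are refined. Their products position the stripes of segment polarity genes such as en and wg, and several members are used again later in the nervous system, the heart or the gut.

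In the dm6 annotation eve lies on arm 2R (9979319 to 9980795), h on 3L (8675759 to 8679253), run on X (20690670 to 20697321), ftz on 3R (6864324 to 6866244) between Scr and Antp, and opa on 3R (4852813 to 4869979). The other 4 members are on 2L. There odd (3604224 to 3606756) has its relative sob as a neighbour 23454 bp away, prd spans 12082995 to 12085827, and slp1 (3825675 to 3827099) and slp2 (3836840 to 3839185), a pair of forkhead genes, lie 9740 bp apart. The exons of eve share 235 bp with an antisense RNA, asRNA:CR43948, and those of prd share 179 bp with asRNA:CR44592. Whether reads were counted by strand is not given in the sources used here, so the counts of eve and prd carry that uncertainty.

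Each library held between 13148430 and 167412388 counts on genes (median 54799768). All RNAi libraries had less of the targeted TF than both control libraries in 39 of 47 peak-window comparisons (1 of the 39, Camta, with 1 RNAi library) and in 32 of 45 at 16–18 hours. Levels are given below as CPM, a gene’s counts scaled to 1e6 counts on genes in that library. Libraries differed in markers of age within and between windows. At 2–4 hours the summed level of 6 muscle genes (Mhc, Mlc1, Mlc2, up, wupA and Tm2), which mark differentiated muscle, was 28.4 and 46.5 CPM in twi RNAi embryos and 8.98 and 6.03 CPM in their MTD-Gal4 controls. In the mCherry control embryos of the same window it was 182 and 899.8 CPM, while control embryos of 0–1.5 hours had a median of 152 CPM (0.684 to 1142 CPM, 42 libraries) and those of 6–8 hours had 439.8 to 1679 CPM. Over the same 4 control libraries the summed level of 6 maternal genes (bcd, nos, osk, gcl, pgc and smg) was 3403 CPM in replicate 1 of the mCherry set and 1342 to 1610 CPM in the others.

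In control embryos all 9 members were low at 0–1.5 hours and rose together at 2–4 hours. The control libraries of all windows were compared in 1 fit by edgeR's quasi-likelihood test, with the window and the control set as terms and p adjusted by Benjamini-Hochberg over 13072 genes, and calls were made where the adjusted p was 0.1 or less. Fold changes come from this fit, which scales libraries by TMM (a trimmed mean over genes) and takes out differences between control sets. They can thus differ from ratios of median CPM, for some members widely. All 9 members were called higher at 2–4 hours than at 0–1.5 hours, where 41.5% of all genes tested were called higher. The median of prd, a paired-domain and homeodomain TF, was 59.6 CPM at 2–4 hours (13.8 to 65.3 CPM, 4 libraries) and 0.737 CPM at 0–1.5 hours (0.0384 to 4.98 CPM, 42 libraries), a log2 fold change of 5.73 ± 0.57 (SE, adjusted p 7.87e-16). The smallest change was that of slp2, with 34.4 CPM at 2–4 hours (18.0 to 51.5 CPM) and 2.93 CPM at 0–1.5 hours (0.617 to 6.70 CPM), a log2 fold change of 4.11 ± 0.29 (SE, adjusted p 3.92e-24). No member's 2–4 hour libraries overlapped with those of 0–1.5 hours, and the share of all genes separated in this way is not given. The log2 fold changes of the remaining members lay between 4.26 (run) and 5.37 (opa). The median over all genes was 0.46, and 0.08 when libraries were scaled by their totals only. Leaving out any of the 4 libraries of 2–4 hours left all 9 calls in place. Of the other genes of the cascade, all 10 segment polarity genes listed (en, inv, wg, hh, ptc, ci, gsb, gsb-n, nkd and mid), both listed relatives of odd (sob and drm) and all 3 Toll receptors (18w, Toll-6 and Tollo, which read pair-rule stripes during cell intercalation) were higher, while of 6 gap genes 5 were higher and 1 was lower.

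**Figure D1:**
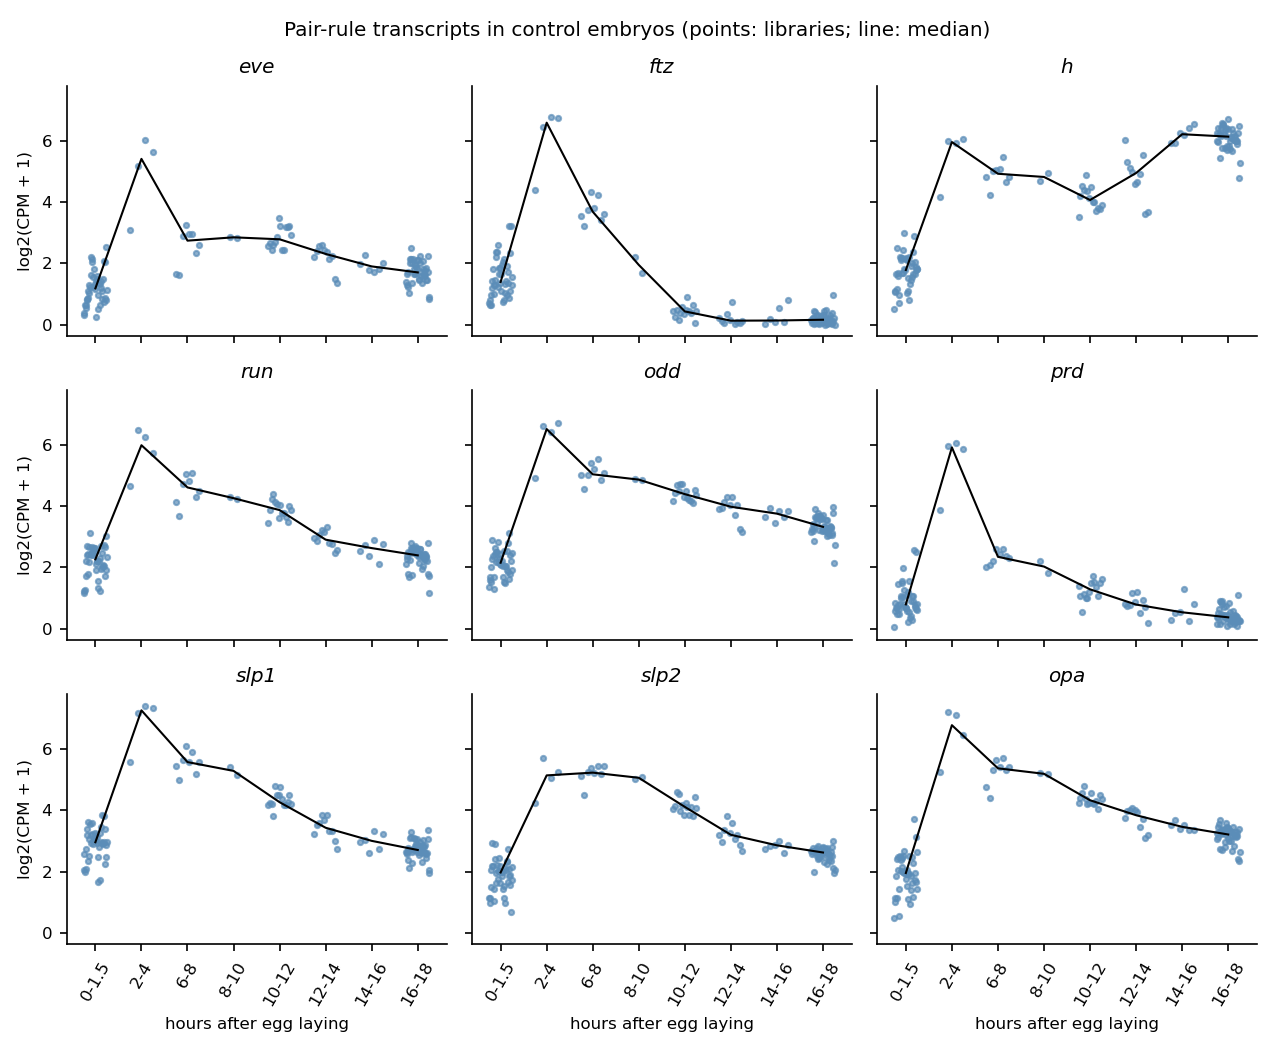
Levels of the 9 pair-rule genes in 128 control libraries, on a log2(CPM + 1) scale, by window in hours after egg laying. Points are libraries and the line joins medians. Medians of the other genes are highest at 2–4 or (slp2) 6–8 hours, and those of ftz and prd are lowest at the end, while h climbs again to a median of 73.1 CPM at 14–16 hours.

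By 6–8 hours the members had separated. Of the 9, 7 were called lower at 6–8 hours than at 2–4 hours, where 23.0% of all genes were called lower. The loss was largest for prd, at 4.10 CPM at 6–8 hours (3.09 to 5.14 CPM, 8 libraries), a log2 fold change of -3.16 ± 0.66 (SE, adjusted p 3.60e-05), and for eve, at 5.71 CPM at 6–8 hours (2.05 to 8.44 CPM) against 42.0 CPM at 2–4 hours (7.501 to 63.5 CPM), a log2 fold change of -2.79 ± 0.41 (SE, adjusted p 1.65e-08). The forkhead gene slp1 had 46.8 CPM at 6–8 hours and 153 CPM at 2–4 hours (-1.48 ± 0.30), and run (-1.35 ± 0.32), opa (-1.31 ± 0.44), odd (-1.07 ± 0.29) and h (-0.91 ± 0.41) were lower by less. For slp2, whose sequence and expression resemble those of slp1, the median was 36.6 CPM at 6–8 hours and 34.4 CPM at 2–4 hours, with a log2 fold change of -0.02 ± 0.35 and an adjusted p of 0.975. The homeobox gene ftz had 11.9 CPM at 6–8 hours and 95.6 CPM at 2–4 hours, yet its log2 fold change of -1.37 ± 0.75 missed the threshold (adjusted p 0.125). No control set holds libraries of both windows. The fit ties the sets through their libraries of 0–1.5 and 16–18 hours, where ftz had medians of 1.62 and 0.115 CPM. Replicate 1 of the mCherry control at 2–4 hours had the lowest level of all 9 members among the 4 libraries, and without it ftz was called too, for 8 members in all. Without replicate 2 of that set 5 members were called, and h and opa were not (log2 fold changes of -0.58 and -0.80). Without replicate 2 of the MTD-Gal4 set 6 were called, h being lost at -0.78. The call of h was also lost with RLE size factors, library totals only or mCherry sets only (adjusted p 0.102, 0.194 and 0.459). Of the gap genes 4 of 6 were lower at 6–8 hours. Of the 10 segment polarity genes 2 were higher, where 4061 of all 13072 genes were called higher, and none was lower.

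From 6 to 12 hours only ftz was called between neighbouring windows. Its median was 2.92 CPM at 8–10 hours and 0.346 CPM at 10–12 hours (0.0441 to 0.880 CPM, 14 libraries). The log2 fold change was -2.79 ± 1.04 for 8–10 over 6–8 hours (adjusted p 0.0893) and -3.12 ± 0.90 for 10–12 over 8–10 hours (adjusted p 0.0331), in comparisons that called 5.35% and 1.49% of all genes lower. Only 2 control libraries represent 8–10 hours, and without either of them neither call held. Adjusted p was then 0.274 and 0.401 for 8–10 over 6–8 hours and 0.314 and 0.117 for 10–12 over 8–10 hours.

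From 12 hours on h parted from the other members. At 12–14 over 10–12 hours 7 members were called, 1 higher and 6 lower, beside 50.8% of all genes called in either direction. The higher one was h, a bHLH repressor that works with Groucho, at 29.8 CPM at 12–14 hours (11.2 to 63.6 CPM, 10 libraries) and 15.8 CPM at 10–12 hours (10.4 to 28.3 CPM, 14 libraries), a log2 fold change of 0.83 ± 0.28 (SE, adjusted p 0.0109). The lower ones were run (-0.99 ± 0.22), slp1 (-0.91 ± 0.21), slp2 (-0.89 ± 0.24), eve (-0.81 ± 0.29), opa (-0.65 ± 0.30) and odd (-0.43 ± 0.20), of which odd and opa were not called with RLE size factors (adjusted p 0.290 and 0.193), DESeq2 (0.285 and 0.181) or no filter on low counts (0.145 and 0.123). At 14–16 over 12–14 hours, with 23.9% of all genes called, h gained again to 73.1 CPM at 14–16 hours (59.3 to 92.6 CPM, 6 libraries), a log2 fold change of 1.26 ± 0.34 (SE, adjusted p 0.00548), and slp1 was lower (-0.77 ± 0.26, adjusted p 0.0262), a call lost with DESeq2, RLE size factors, no filter or no control set term (adjusted p 0.102 to 0.159). At 16–18 over 14–16 hours edgeR called 0 of the 9 members, DESeq2 called 0 and 0 had an unadjusted p under 0.05, while 26.5% of all genes were called. Scaling changed which way genes at large were called. Of called genes, 3893 of 7522 were higher at 2–4 over 0–1.5 hours with library totals only, against 5426 of 8061 with TMM, and 4945 of 7079 against 4061 of 7070 at 6–8 over 2–4 hours. With RLE size factors 1012 of 1358 were higher at 8–10 over 6–8 hours (737 of 1437 with TMM), 3913 of 6339 at 12–14 over 10–12 hours (3111 of 6640 with TMM) and 1481 of 2409 at 14–16 over 12–14 hours (1140 of 3128 with TMM). Library totals only made 993 of 1293 higher at 8–10 over 6–8 hours, and 334 of 1387 at 10–12 over 8–10 hours (492 of 687 with TMM). The gain of h came in windows in which the summed muscle genes had medians of 9703 CPM at 10–12 hours, 20178 CPM at 12–14 hours and 26194 CPM at 14–16 hours.

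At 16–18 hours the 42 control libraries showed h at a median of 69.1 CPM (26.8 to 102 CPM), which is 113% of its median at 2–4 hours. In the same libraries odd had 9.03 CPM, opa 8.28 CPM, slp1 5.54 CPM, slp2 5.18 CPM, run 4.26 CPM and eve 2.25 CPM, or 3.61% (slp1) to 15.0% (slp2) of their medians at 2–4 hours. The median of prd was 0.296 CPM and that of ftz 0.115 CPM. In 2 of the 42 libraries ftz had 0 counts, where 3 counts, the limit that a count of 0 allows, would be 0.0298 to 0.163 CPM over the libraries of this window. Since whole embryos were used, fewer cells of a type and less RNA per cell cannot be told apart.

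Levels can be compared between genes only per length. Per kb of exon, slp1 was highest in control embryos at 2–4 hours, with a median of 107.5 CPM per kb, above ftz at 53.9 CPM per kb in 4 of 4 libraries. Next in order were odd (38.7 CPM per kb), opa (38.0 CPM per kb), eve (29.9 CPM per kb), h (26.2 CPM per kb), prd (22.1 CPM per kb), run (20.2 CPM per kb) and slp2 (14.7 CPM per kb). Neighbours in this order did not always keep it, since odd stood above opa in 1 of 4 libraries, eve above h in 2 and prd above run in 2, while slp2 was below run in 4 of 4. The adjacent genes slp1 and slp2 were thus at opposite ends of the order.

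The members also differed in which genes they resembled. Over the 128 control libraries, Pearson's r of log2(CPM + 1) was computed between each member and 10944 genes with a mean of at least 1 CPM in a window, as a description in which windows and libraries are shared by all points. The most similar genes of odd were opa (0.97), D (0.96) and phyl (0.96), and those of opa were odd (0.97), corn (0.96) and D (0.96), where D (Dichaete) is a Sox TF of the early embryo. For run they were slp1 (0.95), sna (0.95) and hkb (0.95), for slp1 hkb (0.97), run (0.95) and Traf4 (0.95), and for slp2 Inx3 (0.98), trn (0.98) and gbb (0.98). For ftz they were dib (0.96), CG13454 (0.95) and the gap gene gt (0.94), for prd twi (0.91), ind (0.90) and dib (0.90), and for eve twi (0.89), run (0.87) and hbn (0.87). The likeness of h was to CG11791 (0.98), CG16758 (0.97) and Schip1 (0.97), and between h and ftz r was -0.22.

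The RNAi comparisons ask which TFs the level of a pair-rule gene depends on. For each TF and window its RNAi libraries were set against their own control set at that window, in the same test. Several TFs share control libraries, so that their comparisons are not independent. Summed over TFs, 32 of 413 member tests were called at the peak windows (7.75% of tests), where 9.44% of all gene tests were called. Of the tests at 16–18 hours 10 of 359 were called (2.79%), where 5.97% of all gene tests were called. Both shares of the members lay below those of all genes. The calls fell in 9 comparisons at the peak windows and 7 at 16–18 hours, and most of them in a few. The sense strands of the hairpins of 4 TFs whose comparisons are described below follow, since they are what was expressed against each target, and each is 21 bases long, written in lower case as DNA with no part marked. The genes caup, Kah and scro are on arm 3L and CG33557 is on X.
caup: tacgattacgagtacgtttaa
CG33557: ctgcacaaatacgagagcgaa
Kah: ccgattcgatctacagctcta
scro: tagcacaaagaagaaagcgaa

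The only comparison in which members were higher at a peak window was that of twi, which encodes Twist, the bHLH factor that specifies mesoderm. The level of twi itself was 74.4 and 90.3 CPM in twi RNAi embryos and 177 and 173 CPM in MTD-Gal4 control embryos at 2–4 hours. Of the 9 members 7 were called higher in twi RNAi embryos, where 20.8% of all genes were called higher. In all 9 both RNAi libraries lay above both control libraries, and the share of all genes separated in this way is not given. The zinc-finger gene opa had 218 and 266 CPM in twi RNAi embryos and 136 and 87.4 CPM in control embryos, with a log2 fold change of 1.00 ± 0.28 (SE, adjusted p 0.0531). The Runt-family gene run had 129 and 147 CPM in twi RNAi embryos and 74.7 and 52.4 CPM in control embryos, 1.01 ± 0.23 (SE, adjusted p 0.0356). These were the widest differences, and prd followed closely. Its levels were 116 and 141 CPM in twi RNAi embryos and 65.3 and 57.2 CPM in control embryos, 0.96 ± 0.18 (SE, adjusted p 0.0246).

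The forkhead pair moved in the same comparison, slp2 with 68.4 and 65.0 CPM in twi RNAi embryos and 32.0 and 36.9 CPM in control embryos (0.85 ± 0.12, adjusted p 0.0175) and slp1 with 280.4 and 250.4 CPM in twi RNAi embryos and 169.6 and 162 CPM in control embryos (0.57 ± 0.13, adjusted p 0.0362). Both groups of slp2 libraries were tight. The zinc-finger gene odd had 152 and 170.2 CPM in twi RNAi embryos and 84.7 and 103 CPM in control embryos (0.67 ± 0.16, adjusted p 0.0356), and ftz had 156 and 209 CPM in twi RNAi embryos and 108 and 105 CPM in control embryos (0.67 ± 0.20, adjusted p 0.0629). For eve the levels were 81.1 and 104.6 CPM in twi RNAi embryos and 63.5 and 48.9 CPM in control embryos, with an adjusted p of 0.10003 just past the threshold (0.62 ± 0.23). For h they were 77.2 and 88.2 CPM in twi RNAi embryos and 59.3 and 65.1 CPM in control embryos (0.31 ± 0.14, adjusted p 0.166). Without replicate 1 or replicate 2 of the twi RNAi embryos edgeR called 0 members and 0 of all genes, while the median log2 fold change of the members was 0.86 and 0.60. Without control replicate 1 there were 8 calls and without control replicate 2 there were 9. With library totals only 9 members were called, and 2290 of 3606 called genes were higher, against 1959 of 3774 with TMM.

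Other genes of the cascade moved with the members in the twi comparison. Of 10 segment polarity genes 9 were higher (median log2 fold change 1.00, against 0.67 for the members and 0.02 for all genes tested), as were 2 of 2 relatives of odd, 3 of 3 Toll receptors and 2 of 6 gap genes. Of 5 mesoderm genes (twi, sna, Mef2, htl and tin) 1 was higher and 2 were lower. Markers of age moved as well. All 6 muscle genes were higher (28.4 and 46.5 CPM summed in twi RNAi embryos and 8.98 and 6.03 CPM in control embryos, none at 0), 3 of 4 neural genes were higher, and 2 of 6 maternal genes were lower (678 and 680.0 CPM summed in twi RNAi embryos and 1610 and 1342 CPM in control embryos). Their part in the result was not tested, and the driver named by the control label differs as well.

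**Figure D2:**
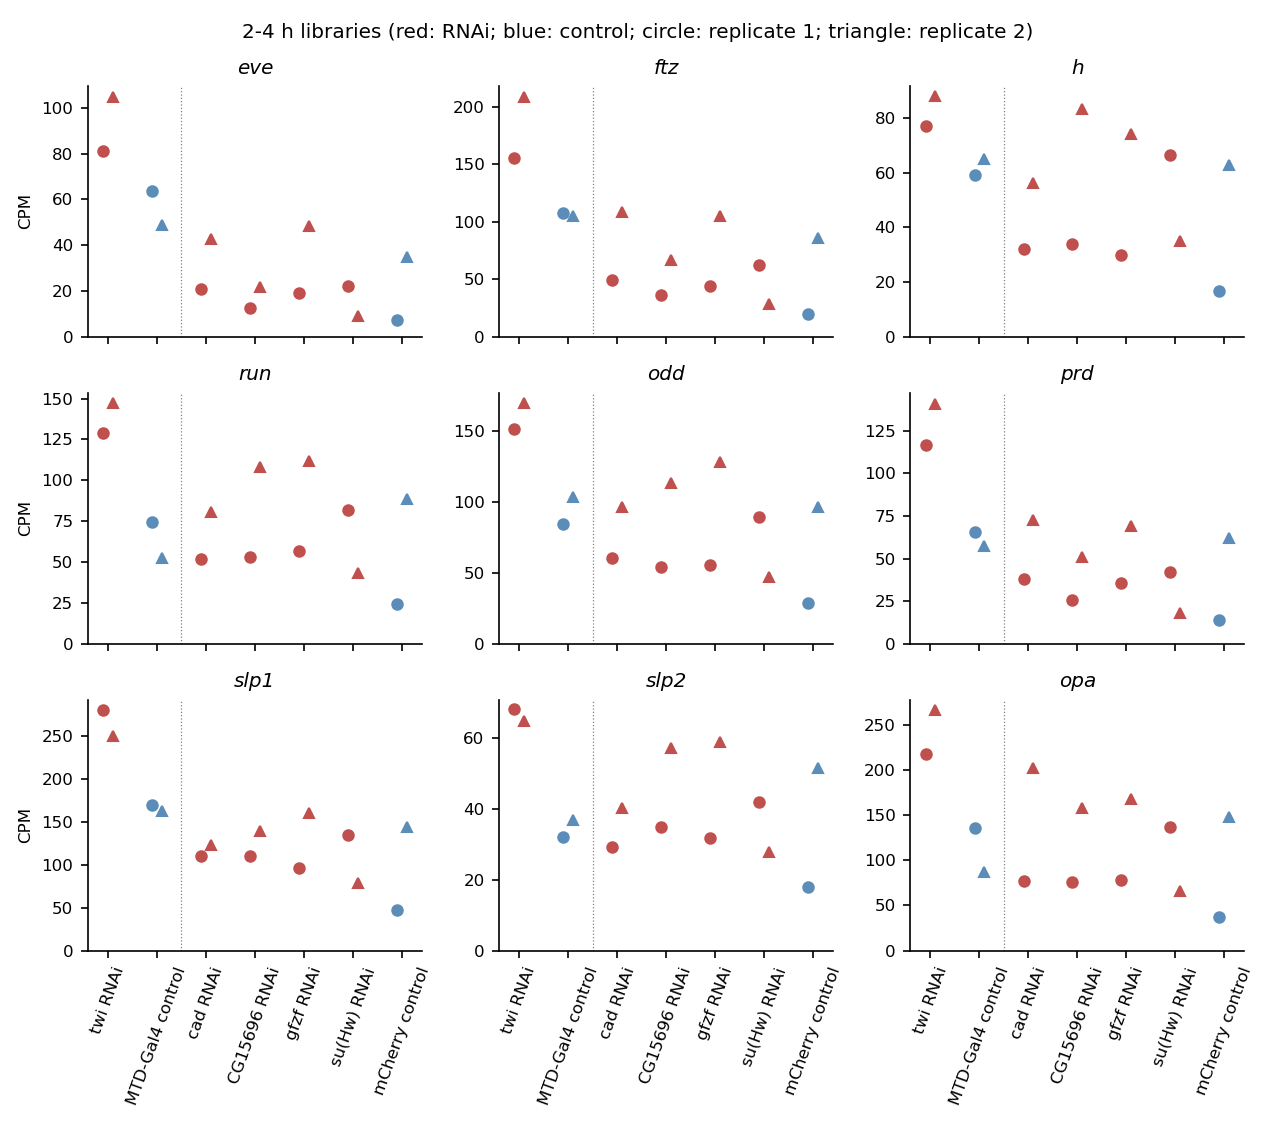
CPM of each pair-rule gene in the 14 libraries of 2–4 hours, RNAi in red and control in blue, with replicate 1 as a circle and replicate 2 as a triangle. Left of the dotted line twi RNAi lies above its MTD-Gal4 control in every panel, and right of it the 2 replicates of a group lie far apart, with mCherry control replicate 1 the lowest point of its set in every panel.

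For the other TFs with a peak window of 2–4 hours, which share the mCherry control libraries, edgeR called 0 of 9 members for cad, CG15696, gfzf and su(Hw). DESeq2 also called 0 and no member had an unadjusted p under 0.05 in any of the 4. All genes were rarely called too, at 1.10% for cad, 0.0274% for CG15696, 1.25% for gfzf and 2.06% for su(Hw). The replicates of a group were far apart. In the mCherry control eve had 7.501 and 35.0 CPM, ftz 19.8 and 86.1 CPM and opa 36.7 and 147 CPM. The same 3 genes had 21.1 and 42.7, 49.4 and 108, and 77.0 and 202 CPM in cad RNAi embryos. In cad, gfzf and CG15696 RNAi embryos replicate 2 was the higher in all 9 members, and in su(Hw) RNAi embryos replicate 1 was. The level of cad, a homeobox gene supplied by the mother that helps activate posterior stripes, was 49.0 and 45.4 CPM in cad RNAi embryos and 174 and 34.1 CPM in control embryos, so that the targeted gene overlapped between the groups. In all 5 groups the replicate with more pair-rule RNA also had more of the muscle genes (899.8 to 1613 CPM, against 137 to 235 CPM in the other replicate) and less of the maternal genes (1096 to 1550.4 CPM, against 1978 to 3403 CPM), and their part was not tested. Standard errors of members in these 4 comparisons were 0.46 to 0.77 on the log2 scale. Without control replicate 2 the gfzf comparison called 4 members (eve, ftz, run and prd), and in the other 3 comparisons leaving out any library gave no call. Differences of the size seen for twi were not detectable between these groups.

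At 6–8 hours members were lower in CG33557 RNAi embryos, a bHLH TF gene at 0 and 0.0189 CPM there and 0.637 and 1.04 CPM in control embryos. Of 9 members 6 were called lower, where 16.9% of all genes were called lower. The level of h was 13.9 and 13.1 CPM in CG33557 RNAi embryos and 31.4 and 32.1 CPM in control embryos, with a log2 fold change of -0.66 ± 0.15 (SE, adjusted p 0.0269). That call held in every alternative tried. For slp1 the levels were 25.8 and 28.3 CPM in CG33557 RNAi embryos and 49.2 and 67.0 CPM in control embryos (-0.53 ± 0.14, adjusted p 0.0422), and for slp2 18.9 and 17.8 CPM in CG33557 RNAi embryos and 37.1 and 40.3 CPM in control embryos (-0.51 ± 0.13, adjusted p 0.0376). The groups did not overlap in any of these. Over all 47 peak-window comparisons, called or not, h was lower without overlap in 11 and higher in 11. For slp1 these numbers were 10 and 6, and for slp2 14 and 6. The changes of odd (-0.48), run (-0.42) and opa (-0.41) were close behind. The scaling set the size of the change. With libraries scaled by their totals only, the 6 fold changes were -0.99 to -1.23 and the median over all genes was -0.72, against -0.15 with TMM, and 4635 of 6605 called genes were lower, against 1848 of 4914 with TMM. Relative to the median over all genes the 6 members stayed lower in both. With RLE size factors 4 members were called, without control replicate 1 there were 3 (h, odd and slp1) and without control replicate 2 there were 2 (h and slp2).

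Members were also lower in Hr51 RNAi embryos, with Hr51, a nuclear receptor gene, at 0.845 and 0.264 CPM and at 1.35 and 1.79 CPM in control embryos. There 5 of 9 members (eve, run, odd, slp1 and opa) were called lower at 6–8 hours, where 20.0% of all genes were called lower. All of these but eve were also called lower with CG33557. The level of opa was 27.3 and 23.9 CPM in Hr51 RNAi embryos and 42.0 and 51.4 CPM in control embryos (-0.63 ± 0.12, adjusted p 0.0543), that of run 17.9 and 16.5 CPM in Hr51 RNAi embryos and 27.3 and 32.6 CPM in control embryos (-0.56 ± 0.11, adjusted p 0.0543), and that of eve 4.11 and 2.99 CPM in Hr51 RNAi embryos and 6.84 and 6.71 CPM in control embryos (-0.70 ± 0.22, adjusted p 0.0647). All 3 were separate between the groups. Over all 47 peak-window comparisons, called or not, opa was separate and lower in 15 and higher in 8. For run these numbers were 14 and 8, and for eve 15 and 11. The changes of odd (-0.47) and slp1 (-0.45) were not called with RLE size factors (adjusted p 0.119 and 0.110). With library totals only 9 members were called, with a median over all genes of -0.36 against -0.12 with TMM, and 3985 of 5776 called genes were lower against 2102 of 4593 (1112 of 3695 with RLE size factors). Without Hr51 RNAi replicate 2 no member was called, without RNAi replicate 1 there were 3 (eve, odd and opa) and without control replicate 1 there were 8. At its other peak window, 12–14 hours, edgeR called 0 of 8 members tested in Hr51 RNAi embryos, DESeq2 also called 0, and 0 of the 8 had an unadjusted p under 0.05.

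At 8–10 hours 2 members were lower in embryos with RNAi against Kah, a zinc-finger TF gene at 21.5 and 20.6 CPM there and 36.8 and 41.2 CPM in control embryos, where 23.5% of all genes were called lower. The level of slp2 was 17.7 and 20.03 CPM in Kah RNAi embryos and 31.7 and 33.3 CPM in control embryos (-0.51 ± 0.11, adjusted p 0.0120), and that of opa 19.3 and 25.1 CPM in Kah RNAi embryos and 35.9 and 35.3 CPM in control embryos (-0.42 ± 0.13, adjusted p 0.0502). With library totals only 6 members were called, with a median over all genes of -0.39 against -0.12 with TMM, and 4912 of 7013 called genes were lower against 2608 of 5320 (1084 of 3865 with RLE size factors). Without control replicate 1 only slp2 was called, without control replicate 2 neither was (adjusted p 0.122 for slp2 and 0.226 for opa), and without RNAi replicate 2 there were 5 calls.

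The deepest change was in embryos with RNAi against caup, an Iroquois homeobox gene, at 10–12 hours. The level of caup was 0.771 and 0.216 CPM in caup RNAi embryos and 40.2 and 36.8 CPM in control embryos. Of 9 members 7 were called lower, where 49.8% of all genes were called lower. The level of slp1 was 1.04 and 0.485 CPM in caup RNAi embryos and 17.04 and 18.5 CPM in control embryos (-2.47 ± 0.47, adjusted p 0.0108), that of odd 1.18 and 0.458 CPM in caup RNAi embryos and 16.9 and 16.3 CPM in control embryos (-2.27 ± 0.53, adjusted p 0.0185), and that of h 0.852 and 0.243 CPM in caup RNAi embryos and 12.1 and 12.9 CPM in control embryos (-2.45 ± 0.67, adjusted p 0.0270). In all 3 the groups were far apart. The others called were slp2 (-2.54), eve (-2.38), opa (-2.32) and run (-1.57). The shift was general, since 9599 of 11224 genes were called and the median over all genes was -1.17, and the members' median was -2.32. With library totals only the 7 fold changes were -3.65 to -4.59 and the median over all genes was -3.25, with 7859 of 10120 called genes lower against 5587 of 9599 with TMM. Without control replicate 1 only odd and slp1 were called, without control replicate 2 odd, slp1, slp2 and opa were, and without RNAi replicate 1 all 9 were. At 16–18 hours 2 members were lower in caup RNAi embryos, where 18.5% of all genes were called lower. The level of eve was 0.420 and 0.108 CPM in caup RNAi embryos and 3.66 and 3.01 CPM in control embryos (-2.18 ± 0.67, adjusted p 0.0428), and that of odd 1.95 and 0.622 CPM in caup RNAi embryos and 8.98 and 10.7 CPM in control embryos (-1.45 ± 0.49, adjusted p 0.0594). Without either control library neither was called, and without RNAi replicate 1 or 2 there were 5 and 6 calls. With library totals only 6 members were called, the median over all genes was -1.96 against -0.42 with TMM, and 6683 of 8764 called genes were lower against 2109 of 5550.

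In these comparisons at 6 to 12 hours genes of other kinds moved as well. Segment polarity genes were lower, 9 of 10 with CG33557, 8 of 10 with Hr51, 8 of 10 with Kah and 10 of 10 with caup at 10–12 hours. Maternal genes were higher, 3 of 6 with CG33557, 3 of 6 with Hr51, 3 of 6 with Kah (1 was lower) and 6 of 6 with caup at 10–12 hours. Of all genes tested 3066 of 10919 were called higher with CG33557, 2491 of 10508 with Hr51 and 2712 of 11119 with Kah. With caup 4012 of 11224 were called higher at 10–12 hours and 3441 of 11405 at 16–18 hours. The summed level of the maternal genes was 3449 and 3134 CPM in CG33557 RNAi embryos and 1950.4 and 1199 CPM in control embryos, 2678 and 3060 CPM in Hr51 RNAi embryos and 1957 and 1108 CPM in control embryos, 3097 and 2761 CPM in Kah RNAi embryos and 1404 and 1420.0 CPM in control embryos, and 5310 and 5094 CPM in caup RNAi embryos and 1931 and 2178 CPM in control embryos. The muscle genes, none of them at 0, summed to 554 and 145 CPM in caup RNAi embryos and 9556 and 9850 CPM in control embryos at 10–12 hours, with 6 of 6 called lower. For CG33557 and Hr51 none of the 6 was called, and for Kah 1 was lower. At 16–18 hours in caup RNAi embryos 6 of 6 maternal genes were higher (4169 and 4459 CPM summed in caup RNAi embryos and 1099.5 and 1109 CPM in control embryos), 3 of 6 muscle genes were lower (6258 and 1888 CPM in caup RNAi embryos and 26047 and 25283 CPM in control embryos) and 3 of 10 segment polarity genes were lower. The part of the age of the embryos, or of embryos that did not develop, in these results was not tested.

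**Figure D3:**
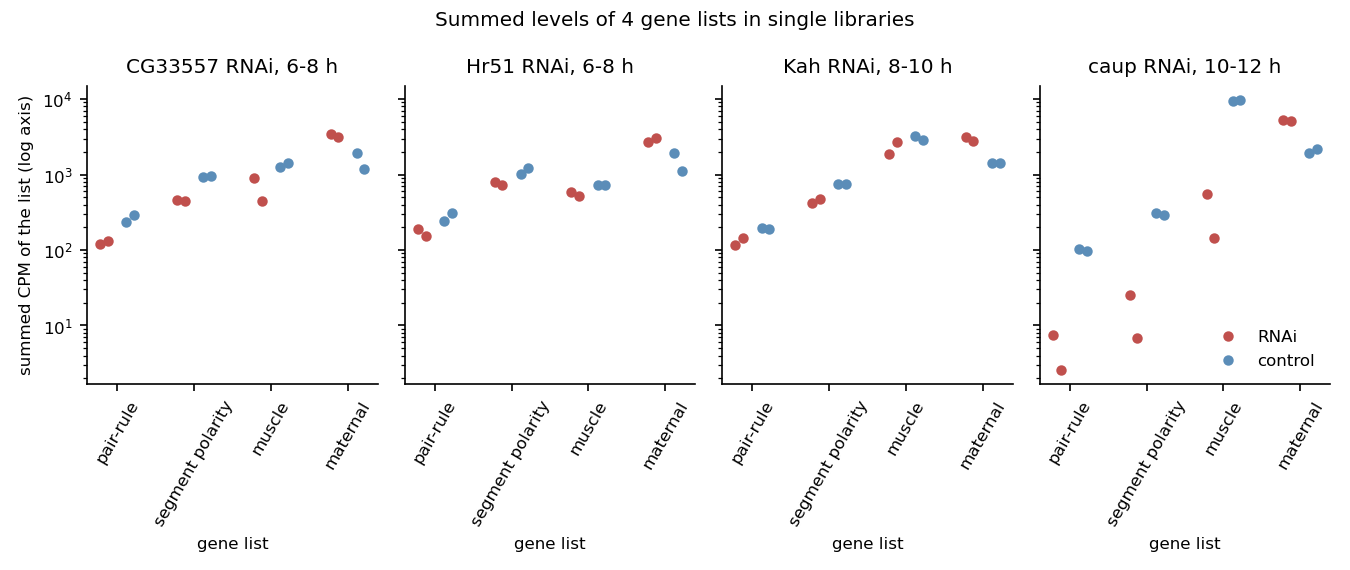
Summed CPM of the pair-rule, segment polarity, muscle and maternal gene lists in each library of the CG33557, Hr51, Kah and caup comparisons, on a log axis, RNAi in red left of control in blue. In all 4 panels pair-rule and segment polarity sums are lower and maternal sums higher in RNAi than in control libraries.

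The other calls were of 1 or 2 members each. Besides caup and Hr51, eve was called lower in embryos with RNAi against CG10209 at both later windows and against fd59A, a forkhead gene. At 12–14 hours eve had 2.90 and 2.56 CPM in CG10209 RNAi embryos and 4.42 and 4.15 CPM in control embryos (-0.54 ± 0.20, adjusted p 0.0697), and run had 6.21 and 5.66 CPM in CG10209 RNAi embryos and 7.84 and 8.91 CPM in control embryos (-0.39 ± 0.14, adjusted p 0.0668), where 18.2% of all genes were called lower. At 16–18 hours eve had 0.878 and 1.61 CPM in CG10209 RNAi embryos and 2.64 and 2.62 CPM in control embryos (-0.99 ± 0.33, adjusted p 0.0642), where 38.6% of all genes were called in either direction. The groups did not overlap at either window, and the share of all genes separated in this way is not given. CG10209 itself had 7.07 and 8.57 CPM in RNAi embryos and 13.8 and 12.7 CPM in control embryos at 12–14 hours. Of the markers, 2 of 6 maternal genes were higher at either window (median log2 fold change 0.11 at 12–14 hours and 0.83 at 16–18 hours), 1 of 6 muscle genes was higher at 12–14 hours and none was called at 16–18 hours, and 4 of 4 neural genes (elav, nSyb, Syt1 and brp) were higher at both. Of 5 cuticle genes 2 were lower at 12–14 hours, and 3 were higher and 1 lower at 16–18 hours. At 12–14 hours 19.4% and 11.2% of reads were on no gene in CG10209 RNAi libraries and 6.47% and 6.52% in control libraries, and the part of these differences in the calls was not tested. At 12–14 hours eve was not called without RNAi replicate 1, RNAi replicate 2 or control replicate 1 (adjusted p 0.162, 0.266 and 0.203), and run was not without RNAi replicate 1, RNAi replicate 2 or control replicate 2 (adjusted p 0.166, 0.277 and 0.172). At 16–18 hours eve was not called without RNAi replicate 1, control replicate 1 or control replicate 2 (adjusted p 0.168, 0.248 and 0.206). Neither call at 12–14 hours was made by DESeq2 (adjusted p 0.155 for eve and 0.161 for run). Library totals only made 3325 of 4975 called genes lower at 12–14 hours, against 2070 of 4402 with TMM, and 2754 of 4400 at 16–18 hours, against 2214 of 4287. In fd59A RNAi embryos at 16–18 hours eve had 1.77 and 1.66 CPM, and control embryos had 3.66 and 3.01 CPM (-0.82 ± 0.20, adjusted p 0.0942), where 10.8% of all genes were called. That call was lost when any 1 of the 4 libraries was left out (adjusted p 0.156 to 0.424) and in 1 fit of all libraries sharing the controls (0.999), 1132 of 1766 called genes were lower with library totals only against 346 of 1248 with TMM, and the control libraries are those of the caup comparison.

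The member called most often was h, in 5 of 47 peak-window comparisons, always lower, and in 5 of 45 at 16–18 hours, higher in 3 and lower in 2. At the peak windows run and opa were called in 5 as well. Of all gene tests 9.44% were called at the peak windows and 5.97% at 16–18 hours. At 16–18 hours h was also the member with the highest CPM in control embryos. At 12–14 hours h had 15.2 and 12.7 CPM in embryos with RNAi against scro, an NK2 homeobox gene, and 29.0 and 45.7 CPM in control embryos (-1.02 ± 0.25, adjusted p 0.0402), where 35.5% of all genes were called. The scro RNAi embryos had 13.9 and 8.24 CPM of scro and control embryos 17.04 and 14.9 CPM. Maternal genes summed to 3696 and 3313 CPM in scro RNAi embryos and 1855 and 1173 CPM in control embryos, with 3 of 6 higher, and 4 of 6 muscle genes were lower (11264 and 11051 CPM summed in scro RNAi embryos and 20444 and 20840.2 CPM in control embryos), and their part was not tested. Without scro RNAi replicate 2 or control replicate 2 h was not called (adjusted p 0.331 and 0.161). In CG32006 RNAi embryos h had 22.3 and 22.7 CPM, and control embryos had 33.1 and 30.7 CPM (-0.35 ± 0.08, adjusted p 0.0104), where 40.4% of all genes were called. There 4 of 4 neural genes and 3 of 6 muscle genes were lower, and of 6 maternal genes 2 were higher and 2 lower (2206 and 2232 CPM summed in CG32006 RNAi embryos and 1053 and 1056 CPM in control embryos), and their part was not tested. Without RNAi replicate 1 its adjusted p was 0.106, and in 1 fit of all libraries sharing the controls 0.298. In embryos with RNAi against repo, the homeobox gene of glia, h had 51.2 and 55.0 CPM, and control embryos had 74.7 and 71.6 CPM at 14–16 hours (-0.54 ± 0.12, adjusted p 0.0982), where 3.14% of all genes were called. The call for repo was lost without RNAi replicate 1, control replicate 1 or control replicate 2 (adjusted p 0.141, 0.609 and 0.224), with library totals only (0.172) and in the fit sharing the controls (0.197). The lower share of called genes moved with library totals only, to 5013 of 7043 for scro (1466 of 4017 with TMM, 470 of 3069 with RLE), 4707 of 6973 for CG32006 (1807 of 4628 with TMM) and 123 of 183 for repo (301 of 380 with TMM).

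Late in development h was higher at 16–18 hours in CG10209 RNAi embryos, with 72.0 and 71.5 CPM, than in control embryos, with 50.5 and 56.1 CPM (0.52 ± 0.10, adjusted p 0.0108). In Camta RNAi embryos, compared with the same control libraries, h had 69.6 and 66.4 CPM (0.35 ± 0.08, adjusted p 0.0755), where 4.69% of all genes were called. In sens-2 RNAi embryos it had 84.6 and 90.9 CPM, and control embryos had 62.7 and 62.0 CPM (0.34 ± 0.10, adjusted p 0.0805), where 16.5% of all genes were called. Embryos with RNAi against Sox15 had less, 62.1 and 54.7 CPM of h, and control embryos had 69.2 and 83.1 CPM (-0.30 ± 0.10, adjusted p 0.0619), where 21.9% of all genes were called. In Pdp1 RNAi embryos h had 64.7 and 59.8 CPM, and control embryos had 72.7 and 69.5 CPM (-0.21 ± 0.07, adjusted p 0.0852), where 21.2% of all genes were called. Counted over the whole gene, the target was not lower in sens-2 RNAi embryos (22.9 and 27.6 CPM, with 21.9 and 21.5 CPM in control embryos). The paper shows less sens-2 RNA only upstream of the hairpin site, which whole-gene counts do not separate, so these counts do not tell whether sens-2 was knocked down. For Sox15 the target overlapped between the groups (1.31 and 1.13 CPM in RNAi embryos, with 1.07 and 1.57 CPM in control embryos). The call was lost without any 1 of the 4 libraries for sens-2 (adjusted p 0.150 to 0.332), without either RNAi replicate or control replicate 1 for Camta (0.371, 0.194 and 0.188), without RNAi replicate 2 or either control replicate for Pdp1 (0.108, 0.50 and 0.274), without control replicate 2 for Sox15 (0.417) and without control replicate 1 for CG10209 (0.154). Library totals only ended it for Camta (0.103) and Pdp1 (0.119), DESeq2 for Pdp1 (0.118) and the fit sharing the controls for Sox15 (0.295). Library totals only made 973 of 2667 called genes lower for sens-2, against 1334 of 1895 with TMM, and 1655 of 2931 for Sox15, against 826 of 2468.

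**Figure D4:**
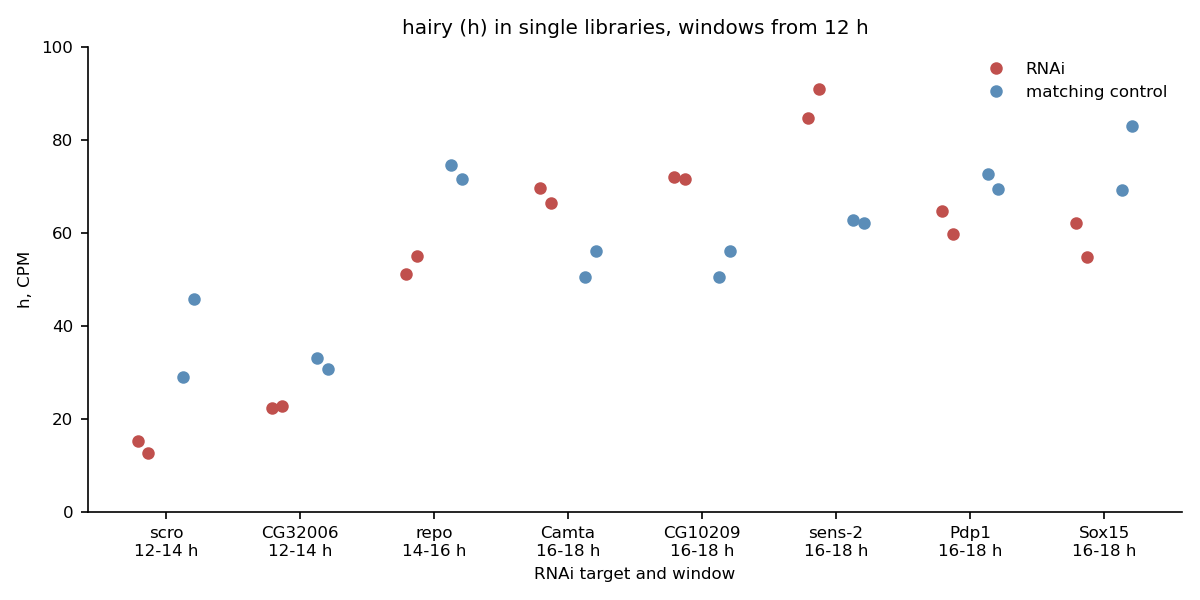
CPM of h in single libraries of the 8 comparisons from 12 hours on in which it was called, RNAi in red left of the matching control in blue. RNAi points are lower for scro, CG32006, repo, Pdp1 and Sox15 and higher for Camta, CG10209 and sens-2. The groups do not overlap in any of these comparisons, which were chosen because h was called. Over all 47 peak-window comparisons, called or not, h was lower without overlap in 11 and higher in 11. Over all 45 comparisons of the last window these numbers were 17 and 6.

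The remaining call was prd in Pdp1 RNAi embryos at 16–18 hours, with 0.388 and 0.170 CPM in RNAi embryos and 0.863 and 0.828 CPM in control embryos (-1.61 ± 0.56, adjusted p 0.0850). At this level the call was lost without RNAi replicate 2, control replicate 1 or control replicate 2 (adjusted p 0.296, 0.323 and 0.303) and with DESeq2 (0.156). By 16–18 hours ftz passed the filter on low counts in 6 of 45 comparisons and prd in 38, while the other 7 members passed in all 45. Members were filtered by their own level, so that ftz was tested mainly where some counts remained.

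**Figure D5:**
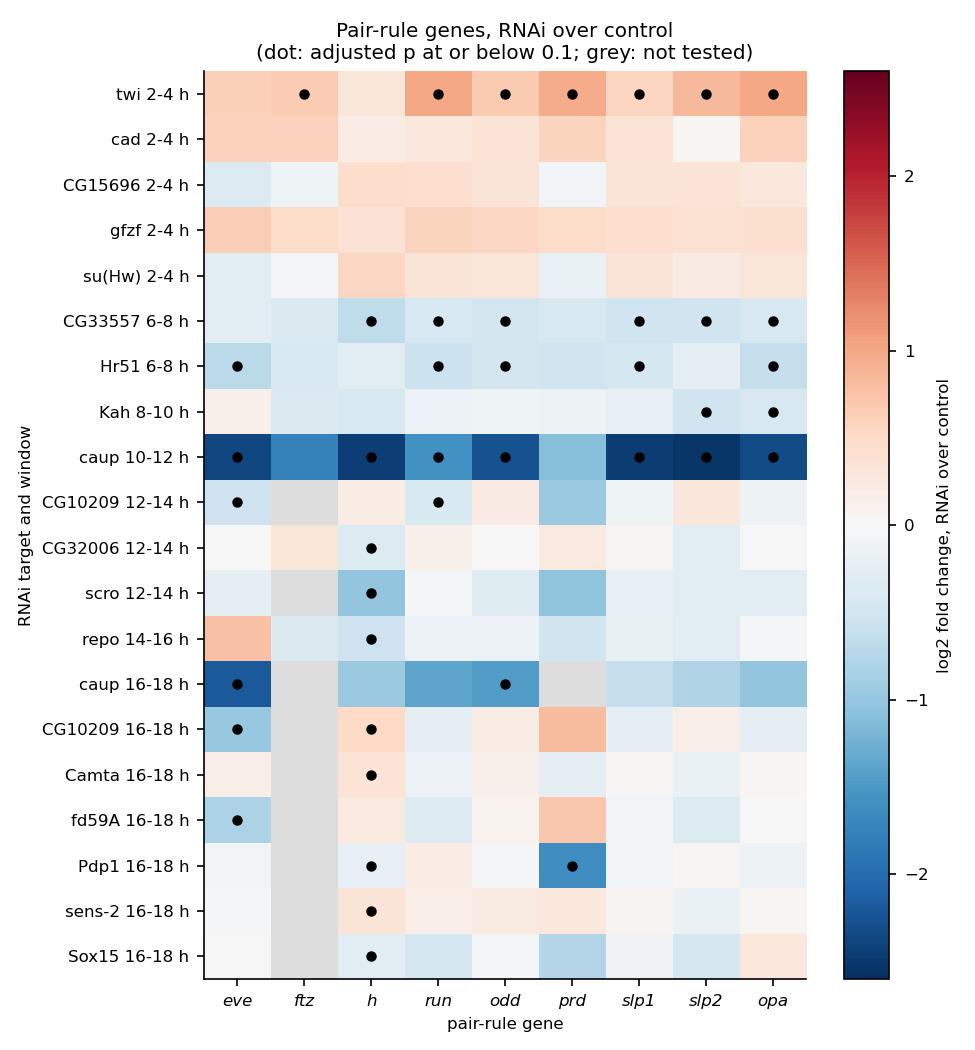
Log2 fold changes of RNAi over control for the 9 pair-rule genes in the 16 comparisons with at least 1 call and the other 4 of 2–4 hours. A dot marks an adjusted p of 0.1 or less and grey a gene that was not tested. Rows with several dots are those of twi (red) and of CG33557, Hr51 and caup (blue), and the h column holds most of the single dots from 12 hours on.

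At 0–1.5 hours, before most zygotic transcription, edgeR called 0 of 405 member tests, where 1.29% of all gene tests were called. Of these tests 28 had an unadjusted p under 0.05, and DESeq2 called 6. The 9 members together summed to a median of 21.9 CPM in 88 RNAi libraries (1.46 to 187.6 CPM) and 28.1 CPM in 42 control libraries (8.97 to 64.0 CPM). Each member had counts in all 42 control libraries.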

How the data were processed

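Gene counts were used as deposited. The authors made them with STAR 2.7.3a on release 6 of the genome and HTSeq 0.12.4, with reads over several genes excluded, and did not scale them. Reads on no gene (3.519% to 20.65% of a library) were left out. Tests were made with edgeR 4.0.16 (quasi-likelihood, TMM, filterByExpr at a minimum count of 10, Benjamini-Hochberg adjustment over all genes tested, call at an adjusted p of at most 0.1) in R 4.3.3, and were tested on simulated data. CPM were computed from library totals on genes. With 1 to 2 libraries per group, each comparison estimated the spread from 3 or 4 libraries. The labels do not say more of how replicates were made, and the study's methods call them biological. No replicate pair held identical counts. Alternatives were RLE size factors, DESeq2 1.42.0, no filter, an adjusted p of 0.05 and a replicate block. For RNAi comparisons they were also 1 fit of all libraries sharing controls and leaving out each library where both groups held 2. Library totals only and a crossed block were added for RNAi comparisons after the values were seen. For control windows they were also no control set term, mCherry sets only and library totals only. Libraries were left out in some control windows only, as stated below. The members and gene lists were chosen with earlier results of these data known. By the rule for named genes, all 9 members and every comparison with a call are named, and lists of related genes and of age markers are given as counts. Coordinates come from the dm6 annotation, and hairpin sequences from the study's supplementary table.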

Additional observations from a re-analysis of the deposited data

Results flagged for a closer look

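Among the control libraries of the 4 windows with 4 to 10 libraries, 40 groups of values (the 9 members and their sum in each window) were examined for a single library far from the rest, and 5 were found, where chance gives about 1 in 20. Of these 3 are replicate 1 of the mCherry control at 2–4 hours, with 16.9 CPM of h, 13.8 CPM of prd and 214 CPM for the sum of the members. The effect of leaving this library out is given with the control windows. At 6–8 hours slp2 was lowest in replicate 2 of the mCherry control of Bdp1, toe and dac, at 21.9 CPM. At 12–14 hours ftz was highest in replicate 2 of the mCherry control of Fer1, Camta and CG10209, at 0.677 CPM.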

How the results depend on the processing

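Of 69 calls of a member in a comparison, 23 held in every alternative run for them and none was reversed. The RNAi calls among the 23 were h with CG33557 at 6–8 hours and odd and slp1 with caup at 10–12 hours. The rest were of control windows, and those at 12–14 over 10–12 and 14–16 over 12–14 hours had no library left out. Of the control libraries only those of 2–4 and 8–10 hours were left out in turn. All 9 members stayed higher at 2–4 than at 0–1.5 hours throughout. The single call at 8–10 over 6–8 hours became 0 with RLE size factors, library totals only, no control set term, no low-count filter and an adjusted p of 0.05, and the 2 calls at 14–16 over 12–14 hours became 1 with DESeq2, RLE size factors, no control set term and no filter. Calls summed over TFs at the peak windows numbered 17 at an adjusted p of 0.05 and 53 with library totals only, against 32. At 16–18 hours they numbered 2 and 18, against 10. At 0–1.5 hours, against 0, they numbered 6 with DESeq2 and 1 with no filter. Leaving out 1 library in turn gave 0 to 0 calls for 8–10 over 6–8 and 10–12 over 8–10 hours, 5 to 8 for 6–8 over 2–4 hours, 0 to 9 for twi and 0 to 4 for gfzf. Over TFs, which members were called changed with the library left out, as given above for twi, Hr51, Kah and caup. None of the 42 RNAi calls changed direction when a library was left out. Of the 42 RNAi calls, 38 held with RLE size factors, 34 with DESeq2 and 36 in 1 fit of all libraries sharing controls, and 19 reached an adjusted p of 0.05. Same-numbered replicates deviated together in 50 of 134 comparisons (correlation over 0.1) and in opposite directions in 44 (under -0.1), so the numbers do not pair libraries. With a replicate block there were 32, 15 and 6 calls at the peak windows, 16–18 and 0–1.5 hours, and with the block crossed in the 44 comparisons 20 at 16–18 hours and 14 at 0–1.5 hours. In the 10 crossed comparisons of the peak windows alone there were 23 calls, 12 higher and 11 lower. With 2 libraries per group, small changes in members of low level were not detectable.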

Other observations

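Some libraries of 0–1.5 hours held more pair-rule RNA than the rest of their window. Replicate 1 of Bdp1 RNAi had a sum of 188 CPM over the 9 members, with 38.3 CPM of slp1, 30.0 CPM of odd and 23.7 CPM of h, against 11.4 CPM in replicate 2. The same library held 795 CPM of the 10 segment polarity genes and 1943 CPM of the 6 muscle genes, against 37.5 and 97.1 CPM in replicate 2, and 2281 CPM of the maternal genes against 4147 CPM. The next highest sum was 73.2 CPM in replicate 2 of repo RNAi, and the lowest was 1.46 CPM in replicate 1 of caup RNAi.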
